A study of Mus musculus with 8 samples.

Results

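The 9 genes described here belong to the p53 pathway and to the cell death machinery that p53 acts on. They are Trp53, Mdm2, Ccng1, Bax, Bbc3, Pmaip1, Bcl2, Bcl2l1 and Bcl2l11, and they were taken by symbol from the 57180 genes of the count table. Their RNA was measured in isolated embryonic mouse retinas by 3′-Tag-Seq. Reads of this method start at transcript 3′ ends, so counts are independent of gene length. There were 4 Rax-SmoCKO libraries, of genotype Rax-Cre with Smo CKO/CKO, and 4 control libraries, which carry Smo CKO/CKO without Cre. Both groups are therefore homozygous for the conditional allele of Smo, the membrane protein that transduces sonic hedgehog (Shh). Rax-Cre is a BAC transgene whose recombinase works throughout the eye primordium, retina included, and in the ventral diencephalon, so deletion is not limited to the retina. No library carries Rax-Cre with intact Smo, so effects of the transgene and of Smo loss cannot be told apart. The study places the retinas at E13.5, whereas the age labels run from day 13 to day 20, rising by 1 from sample to sample. The controls hold the earlier days and the Rax-SmoCKO libraries the later days, so the labelled ages of the groups do not overlap. If these labels were true ages, effects of age and genotype could not be told apart. The labels do not say whether each library came from a separate embryo, and the p-values rest on the spread between these libraries, which may be technical.

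p53, the product of Trp53, is a transcription factor that accumulates when DNA is damaged or cells are stressed, and it switches on genes for cell cycle arrest, repair and death. Its own target Mdm2 encodes the ubiquitin ligase that removes it, which closes a feedback loop. Death by the mitochondrial route is decided by the BCL2 family: pro-survival proteins such as BCL2 and BCL-XL hold back the effectors BAX and BAK, and BH3-only proteins such as PUMA, NOXA and BIM relieve that hold. In the developing retina progenitors and newborn neurons die in part by this route.

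The libraries held 3026843 to 4615667 counts in Rax-SmoCKO (median 3945325) and 3017480 to 4328567 in control (median 3735224). Smo itself was detected at 2.86, 4.97, 3.24 and 3.67 CPM (a gene's count scaled to library size) in Rax-SmoCKO and at 23.9, 21.6, 16.4 and 23.3 CPM in control, and fell by 2.50 on the log2 scale (adjusted p = 0.000254, standard error (SE) 0.21). Where its tags lie relative to the deleted part is not stated in the labels or methods, so this does not check the deletion. Retinal progenitor markers summed to 4075 to 4556 CPM in Rax-SmoCKO and 4159 to 4514 CPM in control, so the labelled tissue was seen in every library. Some libraries stood apart. Control replicate 2 held 15167 CPM of lens genes, against 8.33 to 364.3 CPM in Rax-SmoCKO libraries and 6.13 to 10.7 CPM in the other controls. Counts from 4 Y-linked genes reached 1131 in Rax-SmoCKO replicate 2 and 893 in replicate 3, and at most 1 in any other library. Xist, an RNA made by female cells, had 2 and 0 counts in these replicates, and 1389 to 3106 in every other library. The Rax-SmoCKO libraries thus came from more than 1 embryo, and no control library had the male pattern. Adjusted p-values are from edgeR's quasi-likelihood test over the 14730 genes that reached 5 counts in 4 or more libraries.

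None of the 8 members that could be tested changed in Rax-SmoCKO retinas at an adjusted p under 0.05. In all, 14 of the 14730 tested genes passed, or 0.0950%. At an unadjusted p under 0.05 there were 2 members, Bcl2 and Bcl2l11, both lower in Rax-SmoCKO, beside 9.48% of all tested genes, and DESeq2 and limma-voom gave the same 2 and likewise called 0. With libraries left out the pair did not always hold. Bcl2 had an unadjusted p of 0.0552 without Rax-SmoCKO replicate 4, 0.0799 without control replicate 3, 0.0788 without replicate 2 of both groups and 0.0900 without Rax-SmoCKO replicates 2 and 3, and Trp53 had 0.0330 without control replicate 1. The groups did not overlap for 1 member, Bcl2l11, beside 5.70% of all tested genes. Of the tested members 3 lay above 0 and 5 below, with a median log2 fold change of -0.025, against -0.0018 over all tested genes. The range over the members was -0.28 to 0.15, while the central 90% of all tested genes lay between -0.41 and 0.47. Pmaip1 did not reach the minimum of counts and is given by its counts alone.

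**Figure D1:**
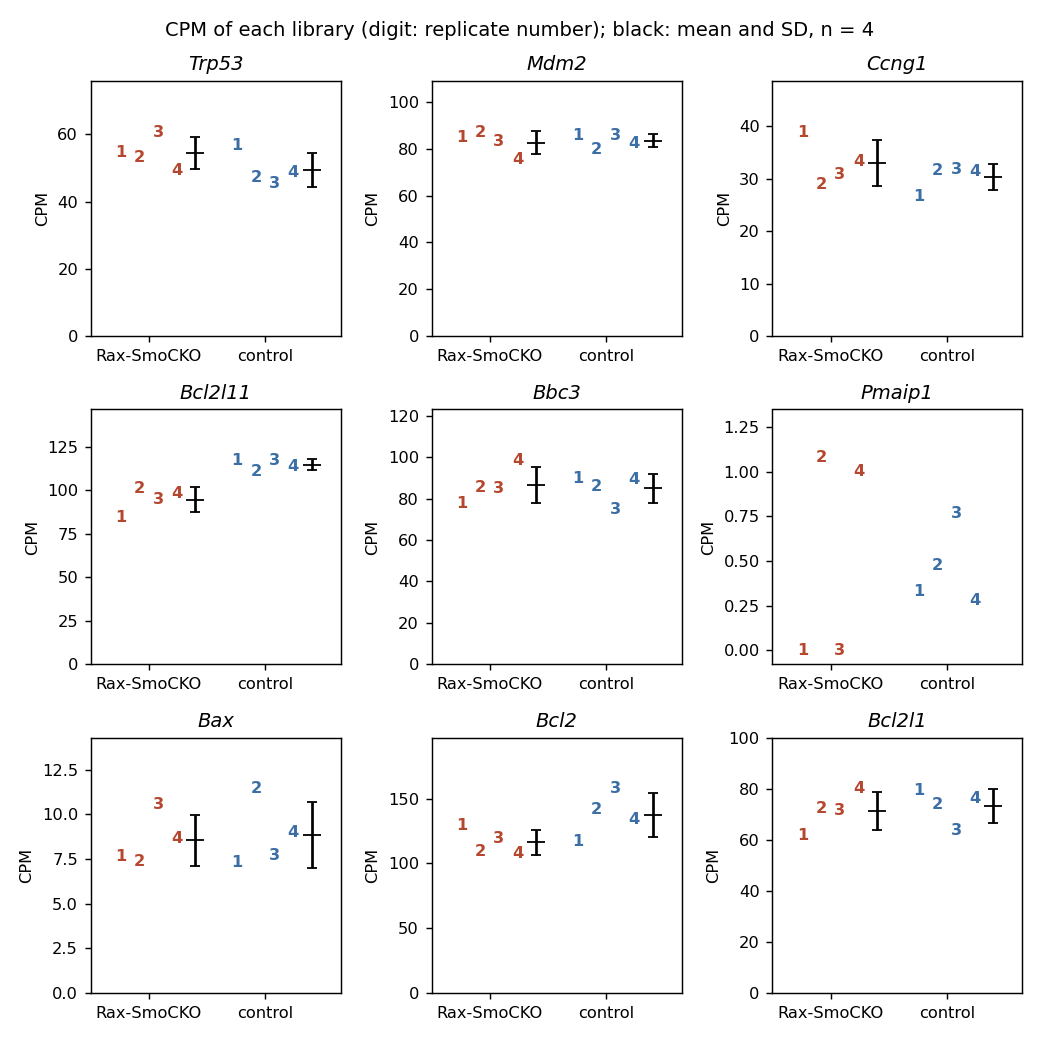
Level of each of the 9 genes in CPM (vertical axes, starting at 0 except for Pmaip1) in the 4 Rax-SmoCKO libraries (red, left) and the 4 control libraries (blue, right). Digits are replicate numbers, and black bars are the mean and SD (n = 4), left out for Pmaip1, which had too few counts. For Bcl2l11 the Rax-SmoCKO libraries, at 84.2 to 100.9 CPM, all lie below the control libraries, at 110.6 to 117.1 CPM, and in the other panels the groups overlap.

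**Figure D2:**
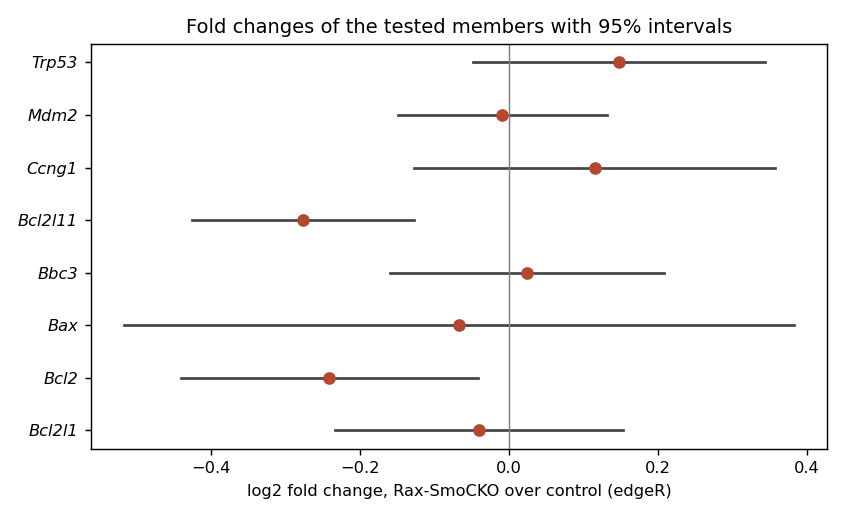
Log2 fold change of the 8 tested members, Rax-SmoCKO over control (horizontal axis), with 95% intervals from edgeR. The intervals of Bcl2l11 (-0.43 to -0.13) and Bcl2 (-0.44 to -0.042) leave out 0 before adjustment over all genes, and that of Bax is the widest at -0.52 to 0.38.

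The members differed in level, and most by more than the spread between libraries. Averaged over the 8 libraries the order was Bcl2, Bcl2l11, Bbc3, Mdm2, Bcl2l1, Trp53, Ccng1, Bax and Pmaip1. The ranges of Bbc3 and Mdm2 met in both groups, so their order is not resolved. Those of Bcl2 and Bcl2l11 met in control but not in Rax-SmoCKO, and those of Bcl2l11 and Bbc3, and of Mdm2 and Bcl2l1, met in Rax-SmoCKO but not in control. From Bcl2l1 down each member was clear of the next in both groups.

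Trp53 encodes p53. Its locus (ENSMUSG00000059552) covers 69580359 to 69591873 on the forward strand of chromosome 11 (GRCm38, as for all gene positions here). Rax-SmoCKO libraries had 54.6, 53.1, 60.7 and 49.3 CPM, and control libraries 56.7, 47.1, 45.2 and 48.6 CPM. Control replicate 1 sat above 3 of the 4 Rax-SmoCKO libraries, so the groups overlapped. The means were 54.5 ± 4.72 CPM in Rax-SmoCKO and 49.4 ± 5.06 CPM in control (SD, n = 4 each), with a log2 fold change of 0.15 (SE 0.09, 95% interval -0.049 to 0.34, adjusted p = 0.64 from edgeR). An exact permutation test of the means gave a two-sided p of 0.2. Without control replicate 1 the value was 0.22 (adjusted p = 0.578), without Rax-SmoCKO replicate 3 it was 0.094 (adjusted p = 0.839), and without Rax-SmoCKO replicates 2 and 3 it was 0.086 (adjusted p = 0.867). p53 is controlled largely through the stability of its protein, which RNA counts do not measure.

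Mdm2 is both the negative regulator of p53 and its transcriptional target. Its gene lies on chromosome 10 from 117688875 to 117710758 on the reverse strand (ENSMUSG00000020184). It had 84.9, 87.3, 83.1 and 75.7 CPM in Rax-SmoCKO, against 85.9, 79.9, 85.6 and 82.5 CPM in control. The libraries of both groups were interleaved, at 82.7 ± 5.01 CPM in Rax-SmoCKO and 83.5 ± 2.84 CPM in control (SD, n = 4 each). Their log2 ratio was -0.009 (SE 0.06, adjusted p = 0.979), and the 95% interval of -0.15 to 0.13 was the narrowest of the tested members. In control the coefficient of variation, 3.40%, was below the 5.72% that counting alone gives at this depth.

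Ccng1 encodes cyclin G1, a p53 target that recruits a phosphatase to MDM2. Its locus is 40748552 to 40755311 on the reverse strand of chromosome 11 (ENSMUSG00000020326). Rax-SmoCKO libraries had 38.9, 28.9, 30.7 and 33.3 CPM, and control libraries 26.5, 31.6, 31.7 and 31.4 CPM. The highest value was that of Rax-SmoCKO replicate 1 and the lowest that of control replicate 1, with the other libraries interleaved. This gave a log2 fold change of 0.11 (SE 0.11, 95% interval -0.13 to 0.36, adjusted p = 0.80 from edgeR). Leaving out Rax-SmoCKO replicate 1 gave 0.028, and leaving out control replicate 1 gave 0.061.

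The promoters of the members were searched for the p53 decamer, the consensus unit of which a p53 response element holds a pair. Windows from 250 bases before to 50 bases after each RefSeq gene start on GRCm38.p6 were used, on both strands, and 8 of the 9 members matched, with 13 windows. A match was found for 4 members, once each, beside 8.36% of all 32851 windows and 9 of the 26 windows of 20 other p53 target genes. The stretches are shown because they place the decamer relative to the starts of the genes whose levels are compared. Each runs 5′ to 3′ on the strand of its gene, with the decamer in capitals, and was read at chr11:69580264-69580313 for Trp53, chr10:117710915-117710964 for Mdm2, chr11:40755442-40755491 for Ccng1 and chr7:45467070-45467119 for Bax.
Trp53: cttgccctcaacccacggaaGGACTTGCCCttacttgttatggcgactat
Mdm2: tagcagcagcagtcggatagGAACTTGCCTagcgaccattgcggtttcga
Ccng1: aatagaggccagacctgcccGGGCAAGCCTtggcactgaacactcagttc
Bax: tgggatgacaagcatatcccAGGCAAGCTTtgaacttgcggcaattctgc
The decamer began 75 bases before the start of Trp53, 186 before that of Mdm2, 185 before that of Ccng1 and 201 before that of Bax. None of these 4 genes passed the test. A match is a description of the letters and does not show that p53 was bound, and response elements outside the windows, such as in a first intron, were not searched.

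Bax encodes the effector that opens the mitochondrial outer membrane. It lies on chromosome 7 from 45461697 to 45466898 on the reverse strand (ENSMUSG00000003873) and overlaps Gm45808 on the same strand. Reads shared by the pair may have been split or left out, so the level of Bax may be understated. It was the lowest of the tested members, with 7.64, 7.34, 10.5 and 8.67 CPM in Rax-SmoCKO and 7.30, 11.4, 7.67 and 8.98 CPM in control. The lowest library of each group lay near 7.3 CPM and no separation was seen. With a mean of 32.8 counts in Rax-SmoCKO and 33 in control, its coefficient of variation was 16.8% in Rax-SmoCKO, where counting alone gives 17.5%, and 21.1% in control, where counting alone gives 17.4%. The log2 fold change was -0.067 (SE 0.21, 95% interval -0.52 to 0.38, adjusted p = 0.95 from edgeR), which takes in changes of either sign. Its sign turned without control replicate 2, to 0.089.

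Bbc3 encodes PUMA, a BH3-only protein that p53 induces strongly. The gene spans chromosome 7 from 16308393 to 16318205 on the forward strand (ENSMUSG00000002083). It had 77.5, 85.1, 84.7 and 98.3 CPM in Rax-SmoCKO, against 89.9, 85.6, 74.6 and 89.3 CPM in control. A library of each group marked the ends of the range, Rax-SmoCKO replicate 4 at the top and control replicate 3 at the bottom. Between groups the log2 fold change was 0.024 (SE 0.08, 95% interval -0.16 to 0.21, adjusted p = 0.955 from edgeR), and its sign turned in some fits with 1 library left out.

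Bcl2l11 encodes BIM, a BH3-only protein that drives death when growth factor signals are withdrawn and that forkhead factors of the FOXO class can induce. It was the member with the smallest p. RefSeq gives it 2 starts at this locus on chromosome 2, and the 250 bases before each are shown, since this is the member whose libraries separated by genotype. They were read on the forward strand of GRCm38.p6 at chr2:128125788-128126037 and chr2:128127325-128127574, and the capitals mark GTAAACA (a forkhead motif), GGGCGG (a GC box) and CCAAT, on either strand.
Bcl2l11 upstream start: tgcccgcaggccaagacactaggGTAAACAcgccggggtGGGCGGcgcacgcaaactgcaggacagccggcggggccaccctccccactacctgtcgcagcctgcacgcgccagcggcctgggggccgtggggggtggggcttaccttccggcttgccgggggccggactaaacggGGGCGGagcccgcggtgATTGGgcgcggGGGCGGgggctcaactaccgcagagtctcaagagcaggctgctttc
Bcl2l11 downstream start: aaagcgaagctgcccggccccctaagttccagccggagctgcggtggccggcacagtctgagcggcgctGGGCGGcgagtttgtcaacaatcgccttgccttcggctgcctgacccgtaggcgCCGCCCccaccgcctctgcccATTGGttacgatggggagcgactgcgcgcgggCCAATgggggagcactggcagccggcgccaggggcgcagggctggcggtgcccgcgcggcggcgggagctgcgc
The 300-base windows were 71.0% and 74.0% G or C with 27 and 38 CpG, against medians of 52.7% and 7 over all windows. Windows of the other members ran from 49.3% with 1 CpG (Bcl2l1) to 78.0% with 39 CpG (Bbc3), and that of Bcl2 had 76.0% with 44 CpG. In the Bcl2l11 windows GTAAACA stood once, before the upstream start. It was in 3 of the 13 member windows, those of Bcl2l11, Bbc3 and Mdm2, beside 3.65% of all windows. GGGCGG and CCAAT stood before both starts, and 35.7% and 37.4% of all windows hold them. The other motifs searched were TATAAA, TTTCGCGC and TTTGGCGC, held by 13.6%, 0.323% and 0.514% of all windows, and the p53 decamer. These letters were not in the Bcl2l11 windows, and no marked motif overlapped another.

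Bcl2l11 lies on chromosome 2 from 128126038 to 128162547 on the forward strand (ENSMUSG00000027381). It had 84.2, 100.9, 94.9 and 98.3 CPM in Rax-SmoCKO, against 117.1, 110.6, 117.0 and 113.7 CPM in control. All Rax-SmoCKO libraries were lower than any control library, and the gap between the groups was set by Rax-SmoCKO replicate 2 and control replicate 2. The means were 94.6 ± 7.32 CPM in Rax-SmoCKO and 114.6 ± 3.12 CPM in control (SD, n = 4 each). The log2 fold change was -0.28 (SE 0.07, 95% interval -0.43 to -0.13), a level 17.5% lower in Rax-SmoCKO. The unadjusted p of 0.00158 ranked 96 among all tested genes, and the adjusted p was 0.234 from edgeR, so the gene did not pass. An exact permutation test of its means gave a two-sided p of 0.0286, the smallest that 4 against 4 allow. Every gene whose groups do not overlap takes this value, 5.70% of all tested genes, so it adds nothing to the separation. In a bulk sample fewer cells of a type that expresses a gene and less of its RNA per cell cannot be told apart.

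Some marker sums also differed in range between the groups, although none of their genes was called. Markers of retinal ganglion cells, the first neurons born in the retina, summed to 3668 to 5336 CPM in Rax-SmoCKO and 3233 to 3817 CPM in control, with all 8 genes above 0 in log2 fold change. Pigment epithelium markers summed to 86.3 to 612.8 CPM in Rax-SmoCKO and 44.9 to 263.3 CPM in control, with 6 of 6 tested genes above 0 and Rpe65 at 0 in every library. Endothelial markers summed to 194.3 to 257.2 CPM in Rax-SmoCKO and 185.8 to 200.3 CPM in control, with 5 of 5 above 0, and mesenchymal markers to 48.3 to 330.6 CPM in Rax-SmoCKO and 47.4 to 148.8 CPM in control, with 6 of 7 tested above 0. Microglial and macrophage markers summed to 47.7 to 87.7 CPM in Rax-SmoCKO and 62.9 to 69.7 CPM in control, with 6 of 9 tested above 0. Erythroid genes reached 3814 CPM in Rax-SmoCKO replicate 2, against 913.0 to 1191 CPM in the other Rax-SmoCKO libraries and 913.0 to 1708 CPM in control. All these ranges overlapped. The direction was not shared by every list, since 3 of 8 progenitor genes lay above 0. Of 9 tested lens genes 0 lay above 0, but control replicate 2 alone held 15167 CPM of lens genes. The medians of the lens sums went the other way, at 47.7 CPM in Rax-SmoCKO and 8.98 CPM in control. Immediate early genes, which respond to handling and stress, summed to 177.8 to 225.3 CPM in Rax-SmoCKO and 146.7 to 174.1 CPM in control, without overlap. The part of these markers in the Bcl2l11 values was not tested. Leaving out replicate 2 of both groups, the libraries richest in lens genes, gave -0.33 for Bcl2l11 (adjusted p = 0.168 from edgeR), and leaving out Rax-SmoCKO replicates 2 and 3, those with Y-linked counts, also gave -0.33 (adjusted p = 0.256).

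The genes whose pattern over the 8 libraries was most like that of Bcl2l11 were Npepl1, Tex9 and Ndufa13. Likeness was the root mean square difference of log2 CPM after each gene was centred on its own mean, and it was 0.047, 0.057 and 0.064 for these genes, whereas the Bcl2l11 profile itself had a root mean square of 0.16. For Trp53, whose own value was 0.13, the closest were Dusp18 at 0.050, Fam20c at 0.060 and Phpt1 at 0.063. The search ran over 12911 genes with a mean of at least 10 counts. With so many genes and only 8 values each, near matches can arise by chance, and shared regulation was not tested. Npepl1, Tex9 and Ndufa13 had log2 fold changes of -0.27, -0.28 and -0.26, near the -0.28 of Bcl2l11, and none was called.

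Bcl2 encodes the founding pro-survival member and had the highest level of the 9 genes. It lies on chromosome 1 from 106538178 to 106714274 on the reverse strand (ENSMUSG00000057329) and overlaps Mir3473f and Gm37053 on the same strand and D630008O14Rik on the opposite strand. Rax-SmoCKO libraries had 128.8, 109.3, 118.9 and 107.7 CPM, and control libraries 116.7, 141.2, 157.4 and 133.6 CPM. Control replicate 1 was below Rax-SmoCKO replicates 1 and 3, while the other controls were above every Rax-SmoCKO library. The means were 116.2 ± 9.80 CPM in Rax-SmoCKO and 137.3 ± 16.9 CPM in control (SD, n = 4 each). The log2 fold change was -0.24 (SE 0.09, 95% interval -0.44 to -0.042, unadjusted p = 0.0216, adjusted p = 0.452 from edgeR), which did not pass, and the exact permutation p was 0.0857. Without control replicate 3, its highest library, the value was -0.17 (adjusted p = 0.654).

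Bcl2l1 encodes BCL-XL, and its shorter splice form BCL-XS, which 3′ tags cannot separate, promotes death. The gene spans chromosome 2 from 152780668 to 152831728 on the reverse strand (ENSMUSG00000007659). It had 61.8, 72.3, 71.5 and 80.0 CPM in Rax-SmoCKO, against 79.3, 73.9, 63.9 and 76.4 CPM in control. The ranges nearly coincided, at 71.4 ± 7.46 CPM in Rax-SmoCKO and 73.4 ± 6.68 CPM in control (SD, n = 4 each). The log2 fold change was -0.041 (SE 0.09, 95% interval -0.23 to 0.15, adjusted p = 0.924 from edgeR).

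Pmaip1 encodes NOXA, a BH3-only target of p53, and was close to the limit of detection. Its counts were 0, 5, 0 and 3 in Rax-SmoCKO and 1, 2, 3 and 1 in control. The 8 counts in Rax-SmoCKO amount to 0.515 CPM (exact 95% Poisson interval 0.222 to 1.02) and the 7 counts in control to 0.476 CPM (0.192 to 0.981), where the intervals cover counting error only. No difference was detectable at this depth. Pmaip1 (ENSMUSG00000024521) lies on chromosome 18 from 66458533 to 66465565, and Rax, whose regulatory sequence drives the Cre, lies 518746 bases away. Of 14 tested genes within 1 Mb of Pmaip1, 2 rose in Rax-SmoCKO at an adjusted p under 0.05 from edgeR, beside 0.0950% of all tested genes called in either direction. Both lie nearer to Rax (65928277 to 65939787) than to Pmaip1, on either side of it, at 65872820 to 65886596 and at 65980738 to 66022580. They were, in that order, Grp, which encodes gastrin-releasing peptide, with a log2 fold change of 3.65 (adjusted p = 0.000488 from edgeR), and Lman1, a cargo receptor of the secretory pathway, with 0.72 (adjusted p = 2.2e-05 from edgeR).

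The BCL2 family members were also summed by role in each library, over these 6 genes only. Bcl2 and Bcl2l1 together had 190.6, 181.6, 190.4 and 187.7 CPM in Rax-SmoCKO, against 196.0, 215.2, 221.3 and 210.0 CPM in control. The means were 187.6 ± 4.20 CPM in Rax-SmoCKO and 210.6 ± 10.8 CPM in control (SD, n = 4 each), and the sums did not overlap. Nearly all of that difference was that of Bcl2, at 116.2 CPM in Rax-SmoCKO and 137.3 CPM in control. Taken alone, both Bcl2 and Bcl2l1 overlapped between the groups, and neither gene was called. Bax, Bbc3, Pmaip1 and Bcl2l11 together had 169.4, 194.4, 190.2 and 206.3 CPM in Rax-SmoCKO, against 214.6, 208.1, 200.1 and 212.2 CPM in control. The pro-death sums overlapped, since Rax-SmoCKO replicate 4 was above control replicate 3. Their lower mean in Rax-SmoCKO was that of Bcl2l11, which was not called, and Bbc3 had the higher mean in Rax-SmoCKO. The log2 ratio of pro-survival to pro-death sums was -0.016 ± 0.137 in Rax-SmoCKO and 0.012 ± 0.116 in control (SD, n = 4 each), a difference of -0.028 that is smaller than the spread within either group. These sums are descriptions over chosen genes and carry no test, and they leave out Mcl1, Bcl2l2 and the other family members described further on.

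**Figure D3:**
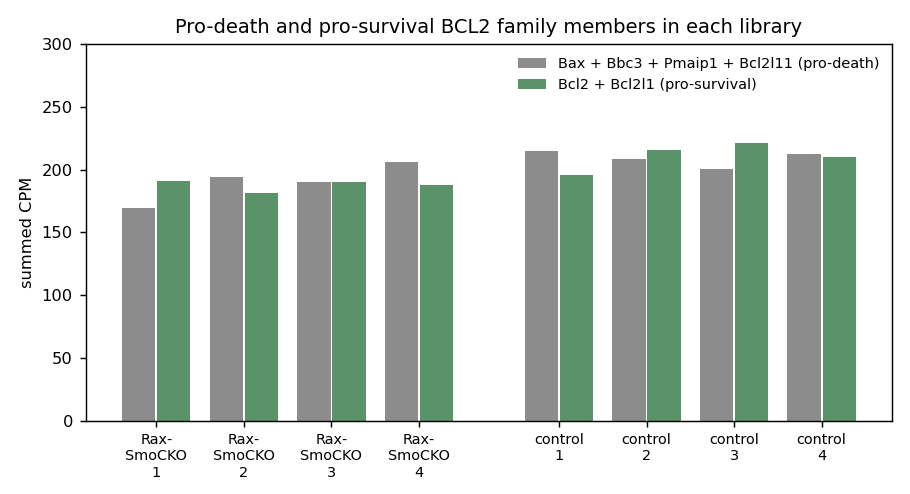
Summed CPM (vertical axis, from 0) of the pro-death members (grey) and the pro-survival members (green) in each of the 4 Rax-SmoCKO libraries (left) and 4 control libraries (right). The pro-survival bars are 181.6 to 190.6 CPM in Rax-SmoCKO and 196.0 to 221.3 CPM in control, and neither kind of bar is the taller in every library.

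The members that p53 switches on, Mdm2, Ccng1, Bax, Bbc3 and Pmaip1, summed to 211.2 ± 3.89 CPM in Rax-SmoCKO and 208.0 ± 5.28 CPM in control (SD, n = 4 each). The other p53 target genes gave a like picture, with sums of 931.2 to 1015 CPM in Rax-SmoCKO and 918.1 to 992.9 CPM in control. Of 26 listed, 24 were tested, 13 lay above 0 and 11 below, and 0 passed, with a median log2 fold change of 0.0058. At an unadjusted p under 0.05 there was 1 in each direction, or 8.33% of those tested beside 9.48% of all tested genes. Aen, an exonuclease of apoptotic cells, had 7.99 to 10.3 CPM in Rax-SmoCKO and 10.6 to 16.6 CPM in control, without overlap (log2 fold change -0.50, SE 0.19, adjusted p = 0.453 from edgeR). Plk2, a polo-like kinase that is also an immediate early gene, had 6.0 to 15.1 CPM in Rax-SmoCKO and 4.98 to 7.85 CPM in control (0.71, SE 0.29, adjusted p = 0.463). Without Rax-SmoCKO replicate 2 Plk2 was at 0.47, and without Rax-SmoCKO replicates 2 and 3 at 0.14. Trp53inp1, named after its values were seen, was the other target whose groups did not overlap, beside 5.70% of all tested genes. It had 52.7 to 59.7 CPM in Rax-SmoCKO and 46.8 to 52.2 CPM in control (0.15, adjusted p = 0.568 from edgeR). Cdkn1a, the arrest gene p21 and the best known target, also named after its values were seen, had 16.2 to 24.3 CPM in Rax-SmoCKO and 13.6 to 23.5 CPM in control (0.27, SE 0.19, adjusted p = 0.686). With 1 library left out Cdkn1a ranged from 0.17 (without control replicate 2) to 0.48 (without control replicate 3).

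Among 20 regulators and relatives of p53, 18 were tested, 7 lay above 0 and 11 below, and 0 passed. Their median was -0.026, and at an unadjusted p under 0.05 there were 1 higher and 3 lower, or 22.2% of the list beside 9.48% of all tested genes. The smallest p-values were those of Chek1, the checkpoint kinase of stalled replication, and Mdm4, the partner of MDM2 in restraining p53. Chek1 had 91.4 to 102.4 CPM in Rax-SmoCKO and 102.0 to 122.7 CPM in control (log2 fold change -0.19, SE 0.07, adjusted p = 0.456 from edgeR). Mdm4 had 64.0 to 85.4 CPM in Rax-SmoCKO and 78.0 to 98.8 CPM in control (-0.24, SE 0.09, adjusted p = 0.456). Both overlapped between groups. Chek2, a checkpoint kinase of DNA breaks, named after its values were seen, had a p close to theirs and the largest fold of the list. It had 4.67 to 9.50 CPM in Rax-SmoCKO and 8.94 to 11.4 CPM in control (-0.56, SE 0.22, adjusted p = 0.456). The groups did not overlap for 1 of the 18 tested genes of this list, beside 5.70% of all tested genes. This was Sirt1, a deacetylase that acts on p53, named after its values were seen. It had 82.0 to 94.0 CPM in Rax-SmoCKO and 76.2 to 81.1 CPM in control (0.15, adjusted p = 0.485 from edgeR). Trp63 and Trp73, the relatives of p53, had too few counts to be tested.

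The rest of the BCL2 family gave no call either. Of 6 other pro-survival genes 2 were tested. Mcl1, which encodes a short-lived pro-survival protein, had 146.3 to 173.0 CPM in Rax-SmoCKO and 164.0 to 183.7 CPM in control (log2 fold change -0.15, SE 0.07, adjusted p = 0.533 from edgeR), and Bcl2l2, which encodes BCL-W, was at 0.093 (adjusted p = 0.915). Of 11 other effector, BH3-only and related genes 9 were tested, 6 above 0 and 3 below, with a median of 0.10. Bcl2l13 had 94.4 to 106.7 CPM in Rax-SmoCKO and 105.8 to 125.1 CPM in control (-0.19, SE 0.07, adjusted p = 0.435). Hrk, a BH3-only gene of neurons, had 13.8 to 20.3 CPM in Rax-SmoCKO and 9.04 to 14.0 CPM in control (0.48, SE 0.19, adjusted p = 0.456). Bcl2l13 and Hrk were the genes of their list at an unadjusted p under 0.05 from edgeR, or 22.2% of the list beside 9.48% of all tested genes. They lay on either side of 0.

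Downstream of the mitochondria, 17 of 18 caspase and apoptosome genes were tested, 6 above 0 and 11 below, with a median of -0.033 and 0 at an unadjusted p under 0.05. The smallest p-values were those of Aifm1, a mitochondrial flavoprotein, at -0.099 (adjusted p = 0.693 from edgeR), and Dffa, the inhibitor of the caspase-activated nuclease, at -0.25 (adjusted p = 0.698). With 1 library left out Aifm1 ranged from -0.13 to -0.056 (without control replicate 3; -0.064 without Rax-SmoCKO replicate 2), and Dffa from -0.35 to -0.11 (without Rax-SmoCKO replicate 1). The pathway from death receptors had 9 of 11 genes tested, 7 above 0 and 2 below, with a median of 0.10 and 0 at an unadjusted p under 0.05. Tnfrsf1a, the receptor of TNF, had 13.3 to 18.8 CPM in Rax-SmoCKO and 11.8 to 15.0 CPM in control (0.32, SE 0.16, adjusted p = 0.553), and Tnfrsf21, death receptor 6, was at 0.12 (adjusted p = 0.723). Tnfrsf21 ranged from 0.060 (without Rax-SmoCKO replicate 3) to 0.19 (without control replicate 3). Counting each once, 88 further pathway genes were listed and 76 tested, of which 38 lay above 0 and 38 below, 0 passed, and 3 were higher and 5 lower at an unadjusted p under 0.05, which is 10.5% beside 9.48% of all tested genes. Activation of caspases and cell death itself were not measured by these counts.

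**Figure D4:**
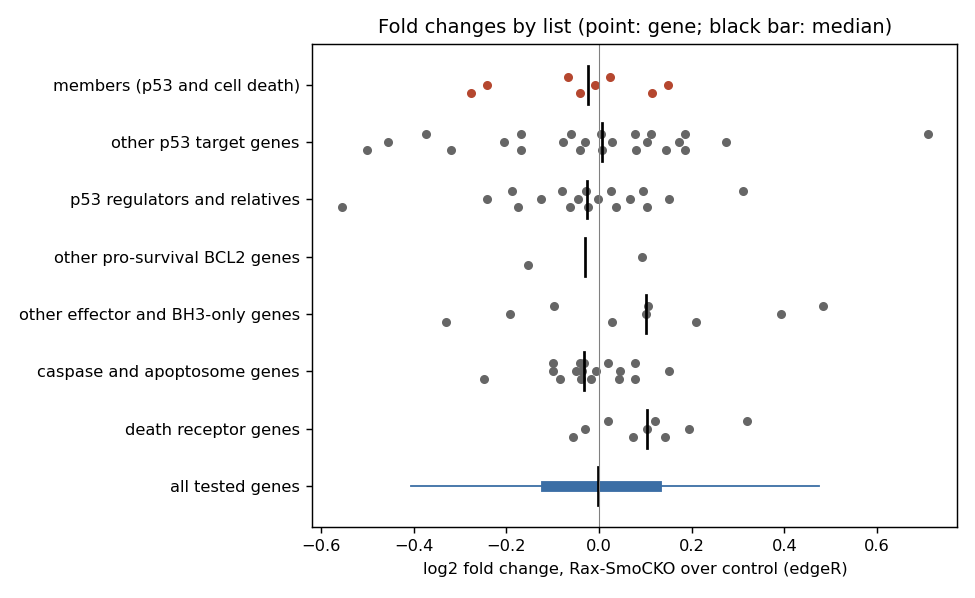
Log2 fold change, Rax-SmoCKO over control (horizontal axis), of each tested gene in the members (red) and 6 further pathway lists (grey), with black bars at the medians. The bottom line shows all tested genes (thick bar, central 50%; thin line, central 90%; median -0.0018), and the list medians lie between -0.033 and 0.10.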

How the data were processed

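Retinal RNA was profiled by 3′-Tag-Seq (QuantSeq forward kit, with a module for molecular identifiers). The deposited values are whole-number counts, which the authors made by aligning reads to the mouse genome and assigning them to Ensembl genes with featureCounts. Named in the submitters' processing notes are STAR 2.7.0e, limma, GRCm38, mm10 and GRCh38. Neither the collapsing of identifiers nor the use of strand in counting is described in the labels or methods. The deposited group means were not used. The methods state 5 Rax-SmoCKO samples, and 4 were analysed here. Genes without a symbol, 525 in all, held 0.094% of the counts. Samples were grouped by title and genotype, 4 in each group. Libraries of a group always differed by more than sampling noise (chi-square over its degrees of freedom, 2.30 to 10.9).

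Counts were compared with edgeR 4.0.16 in R 4.3.3, by TMM scaling and a quasi-likelihood fit on group alone, with Benjamini-Hochberg adjustment over all tested genes and a threshold of 0.05. CPM use TMM-scaled library sizes. Permutation tests were exact and two-sided. The fit was tested on simulated data with dispersions from the fitted trend; a first simulation with gene-wise dispersions had a share of unchanged genes among its calls above the nominal rate. The members and lists were chosen with earlier results of these data known. The text names all members, the 2 genes of each list with the smallest p, the 3 genes most like Trp53 and Bcl2l11, Smo, called neighbours of Pmaip1, and genes said to be named after their values were seen. Alternatives were DESeq2 size factors, library size alone, DESeq2 1.42.0, limma-voom (limma 3.58.1), a filter at 10 counts or none, a block for the replicate number, and leaving out libraries. Gene positions came from GENCODE on GRCm38, and promoter sequences from RefSeq on GRCm38.p6. Pictures were drawn with matplotlib 3.10.9.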

Additional observations from a re-analysis of the deposited data

Results flagged for a closer look

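Of 18 checks for a sample far from the others of its group, 1 was positive, and chance gives about 1 in 20. Ccng1 had 26.5 CPM in control replicate 1, against 31.4 to 31.7 CPM in the other controls, so that the gap was 0.953 of the group's whole range of 4 samples, over Dixon's 95% limit. Without that library the log2 fold change of Ccng1 was 0.061 (adjusted p = 0.922 from edgeR).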

How the results depend on the processing

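Under all 17 alternatives 0 of the members passed. Bcl2l11 stayed between -0.33 and -0.22 on the log2 scale, with adjusted p-values of 0.0875 (no low count filter) to 0.422, and Bcl2 between -0.31 and -0.17, with 0.225 to 0.668. Over all genes the count of calls was 14, against 59 with the DESeq2 Wald test, 289 without a low count filter and 38 with the replicate block, and the cause was not tested. With single libraries left out, log2 fold changes near 0 changed sign: Mdm2 ranged from -0.035 to 0.029, Bax from -0.18 to 0.089, Bbc3 from -0.039 to 0.080, Bcl2l1 from -0.10 to 0.031 and Bcl2l2 from -0.047 to 0.19. Bax was at 0.16 without replicate 2 of both groups. The members' median, -0.025, ranged from -0.068 (without control replicate 3) to 0.0091. DESeq2 gave Bax no adjusted p. Of 597 values under the alternatives, 583 kept direction and side of the threshold or lay near the main value. A gene not called in the main fit was counted as kept if its sign held and it stayed uncalled. The ratio of pro-survival to pro-death sums does not change with scaling, so its values under other scalings were fixed in advance. The share is therefore no measure of robustness. Whether the replicate numbers pair samples is not settled, since so few pairs cannot decide it. Same-numbered deviations correlated at -0.040 to 0.351, with 2 of 4 over 0.1. Of the Rax-SmoCKO libraries, 1 of 4 was closest to its own number. Depth limits Bax and Pmaip1.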
